A study of Saccharomyces cerevisiae with 12 samples.

Results

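The 10 histone genes of budding yeast were examined for RNA polymerase II (Pol II) peaks in wild-type cells and in cells lacking the DEAD-box RNA helicase Dbp2. They were taken by symbol from the R64 gene table, which matched 10 of 10 and holds 6431 nuclear genes, 6002 of them protein-coding. They comprise HTA1 and HTA2 (histone H2A), HTB1 and HTB2 (H2B), HHT1 and HHT2 (H3), HHF1 and HHF2 (H4), HTZ1 (the H2A variant H2A.Z) and HHO1 (the linker histone). Chromatin immunoprecipitation and sequencing was performed on MATa cells of genotype his3Δ1 leu2Δ0 met15Δ0 ura3Δ0, either otherwise wild type or carrying dbp2::KanMx6, here called dbp2Δ. Both strains expressed Rpb3, a Pol II subunit, with a 3XFLAG tag, and were grown in rich medium with glucose. Each strain gave 3 immunoprecipitates and 3 inputs, 12 libraries in all, described as biological replicates. Sample labels name polyA RNA as the molecule, whereas the protocol describes immunoprecipitated DNA and the series is typed as genome binding, and the values were read as chromatin immunoprecipitation.

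The authors pooled the replicates before calling peaks, so each strain has 1 list, of 1642 peaks in the wild type and 1628 in dbp2Δ. No spread between replicates and no test between the strains could be had, and all differences below are descriptions of these 2 lists. After duplicate removal the pooled immunoprecipitates held 3648848 and 4030024 fragments and the pooled inputs 5106431 and 4748970. DBP2 itself was 100% covered by a wild-type peak (fold enrichment 5.69) and 0% covered in dbp2Δ, as its label states. The mating type genes STE2, MFA1 and MFA2, which mark MATa cells, were covered in both lists, and STE3 and MF(ALPHA)1 of the other mating type in neither.

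Histones H2A, H2B, H3 and H4 form the octamer around which DNA is wrapped in the nucleosome. In budding yeast each is encoded by a pair of genes, and the genes lie in divergent pairs (H2A with H2B, H3 with H4) that share the promoter region between them. Core histone genes are transcribed mainly around S phase, when new DNA is packaged, while the HIR complex, a corepressor, keeps 3 of the 4 pairs low outside it. No synchronisation is given in the labels, so the share of cells in S phase and the Pol II per such cell cannot be told apart in these peaks. Paralogs within a histone class are close in sequence, HHT1 and HHT2 encoding the same protein and HHF1 and HHF2 likewise. How reads that match both copies were placed is not given in the sources used here, so values of paralogs are uncertain to that extent.

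All 8 core histone genes and HTZ1 lay 100% under peaks in both lists, and HHO1 was 0% covered in both. A gene counted as covered when peaks lay over at least 50% of its length. By that rule 9 of 10 histone genes were covered in each strain, where the background was 19.9% of all protein-coding genes (wild type) and 20.6% (dbp2Δ), and 16.9% were covered in both. Among protein-coding genes of 312 to 777 bp, the length range of the histone genes, it was 28.3% and 27.6%. The 9 covered genes shared 5 wild-type and 6 dbp2Δ peaks. The difference came from the HTB1-HTA1 locus, where 1 wild-type peak corresponded to 2 dbp2Δ peaks. Each of these 11 peaks overlapped a peak of the other list by at least 1 bp, as did 82.6% of all wild-type and 78.9% of all dbp2Δ peaks. When the overlap had to reach 50% of each of the peaks, 4 of the 5 and 4 of the 6 were shared, where the shares over whole lists were 57.9% and 58.4%.

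**Figure D1:**
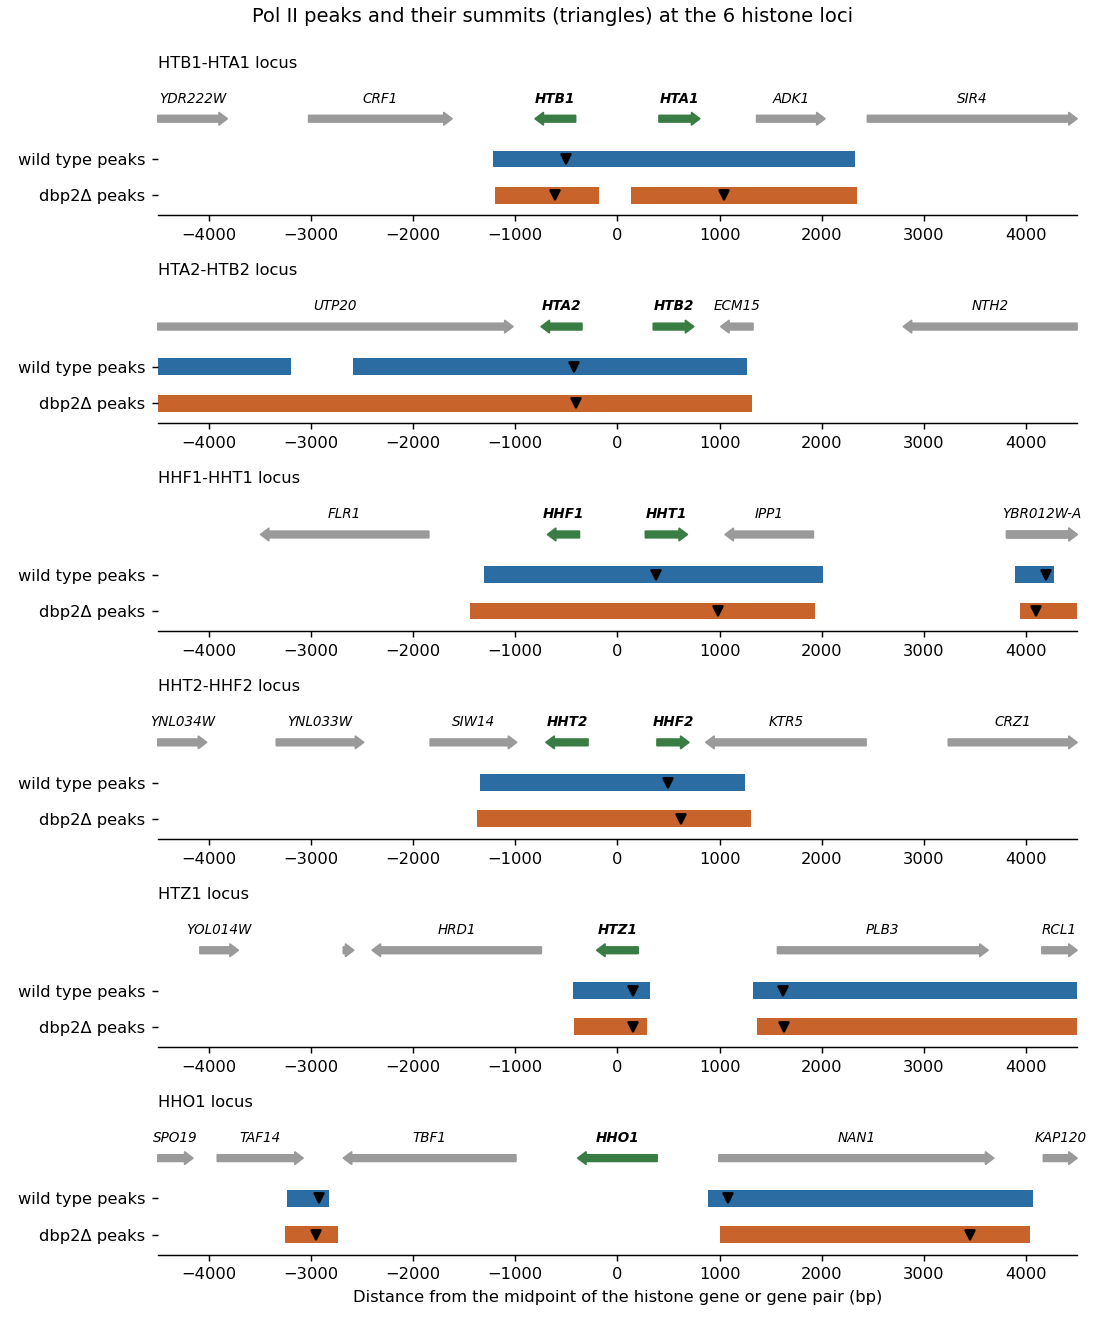
Peaks of the wild type (blue) and dbp2Δ (orange) at the 6 histone loci, plotted by distance in bp from the midpoint of the gene or gene pair. Green arrows are histone genes, grey arrows other genes, triangles summits, and peaks that run past the window are cut at its edge. The peak over HTB1 and HTA1 is interrupted in dbp2Δ, the peak over HTA2 and HTB2 runs on across UTP20, and HHO1 has no peak in either list.

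At HTB1-HTA1, which encodes H2B and H2A, the wild-type peak ran unbroken over both genes, and in dbp2Δ the shared promoter region lay partly outside any peak. HTB1 (YDR224C, chromosome IV, 914317 to 914712, R64) and HTA1 (YDR225W, 915530 to 915928) are separated by 817 bp. The wild-type peak spanned 913904 to 917449 (3546 bp) and also covered ADK1, the adenylate kinase gene that starts 557 bp after HTA1 on the same strand. In dbp2Δ the first peak (913928 to 914938, 1011 bp) held HTB1 alone and ended 226 bp upstream of its start codon. The second (915259 to 917473, 2215 bp) began 271 bp upstream of the HTA1 start codon and covered HTA1 and ADK1. Between them, 320 bp (914939 to 915258) had no peak, and 60.8% of the promoter region was covered, against 100% in the wild type. The outer edges of the locus hardly differed, lying 24 bp inward on the HTB1 side and 24 bp outward on the ADK1 side.

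The other 3 pairs remained under 1 peak in both strains, with 100% of the promoter region covered. Of all 1527 divergent protein-coding pairs, 3.41% lay under 1 peak covering at least 50% of both genes in the wild type, and 2.42% did so in dbp2Δ. Most divergent pairs lack a peak on at least 1 gene. Among the 92 pairs with both genes covered, 56.5% lay under 1 peak in the wild type, and among the 92 such pairs in dbp2Δ it was 40.2%. The histone promoter regions, at 646 to 817 bp, are longer than the median of 511 bp over all divergent pairs. Among pairs with both genes covered and at least 646 bp between them, 33.3% of 42 lay under 1 wild-type peak and 21.7% of 46 under 1 dbp2Δ peak, beside 4 of 4 and 3 of 4 histone pairs. The histone pairs are counted in these shares, which were matched for spacing but not for gene length. Breaks like that at HTB1-HTA1 were not rare: of the 52 divergent pairs under 1 wild-type peak, 13 (25%) had both genes under separate dbp2Δ peaks. In the other direction, 4 of the 37 pairs under 1 dbp2Δ peak (10.8%) had separate wild-type peaks.

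HTA2-HTB2, the second locus for H2A and H2B, lay under a longer peak in dbp2Δ, which ran on over UTP20, a gene of the small-subunit processome that assembles ribosomes. HTA2 (YBL003C, chromosome II, 235394 to 235792) and HTB2 (YBL002W, 236492 to 236887) are 699 bp apart. The wild-type peak extended from 233553 to 237414 (3862 bp). It was preceded over UTP20 by lower peaks at 227503 to 227835, 228103 to 229241 and 229970 to 232948, with fold enrichments of 1.90, 1.58 and 1.55, against 6.13 for the histone peak. In dbp2Δ a continuous peak extended from 227580 to 237457 (9878 bp), the seventh longest of that list, and overlapped all 4 of these wild-type peaks. UTP20 was 78.6% covered by the wild-type peaks and 100% by the dbp2Δ peak. Of all dbp2Δ peaks, 7.68% overlapped 2 or more wild-type peaks, and 4.14% of wild-type peaks overlapped 2 or more dbp2Δ peaks. On the HTB2 side, where the convergent gene ECM15 lies 265 bp on, the edge lay 43 bp farther out in dbp2Δ.

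Both loci of H3 and H4 kept a continuous peak of similar extent. HHF1 (YBR009C, chromosome II, 255373 to 255684) and HHT1 (YBR010W, 256331 to 256741) lay under a peak from 254751 to 258070 (3320 bp) in the wild type. The dbp2Δ peak ran from 254616 to 257996 (3381 bp). Both peaks also covered IPP1, the gene of the cytosolic inorganic pyrophosphatase, which is convergent with HHT1 and ends 370 bp from it. HHT2 (YNL031C, chromosome XIV, 575640 to 576050) and HHF2 (YNL030W, 576727 to 577038) lay under a peak from 574990 to 577584 (2595 bp) in the wild type. Here the dbp2Δ peak ran from 574961 to 577646 (2686 bp). This was the only core locus whose peaks covered no other gene over at least 50% of its length in either list. Its convergent neighbours SIW14 and KTR5 overlapped the wild-type peak over 42.8% and 24.2% of their length and the dbp2Δ peak over 46.2% and 28.2%.

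The wild-type summit, the position of highest pileup in a peak, lay early in a histone coding region at all 5 loci with a peak. It was 77 bp downstream of the start codon in HTA2, 94 bp in HTB1, 104 bp in HHT1, 109 bp in HHF2 and 45 bp in HTZ1. It fell in the H2A gene of one H2A-H2B pair and the H2B gene of the other, and likewise in the H3 gene of one H3-H4 pair and the H4 gene of the other. None of these summits lay in the promoter region between the genes. Over the 52 divergent pairs under 1 wild-type peak, 29 had the summit inside either gene, 7 between the genes and 16 beyond them. For those 29 the median distance from the start codon was 102 bp (quartiles 68 and 213 bp), and the 4 core histone summits lay between these quartiles. HTZ1 is in no such pair.

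In dbp2Δ the summit lay farther from the start codon of the gene that held the wild-type summit at 3 of the 4 core loci. It was still inside that gene at HTB1 and HHF2 but not at HHT1. The distances were 203 bp from the start codon in HTB1, 239 bp in HHF2 and 712 bp from that of HHT1, and 55 bp in HTA2. The HHT1 value is past the coding region: the summit, at 257043, lay 302 bp beyond the end of HHT1 and 69 bp from the end of IPP1, and cannot be assigned to either gene. The second dbp2Δ peak at HTB1-HTA1 also had its summit (916165) 237 bp past the end of HTA1, before ADK1. Peaks of the 2 lists that matched 1 to 1 had summits a median of 93 bp apart (quartiles 28 and 499 bp, 1030 peaks), and 56.5% were within 130 bp. HTA2-HTB2 and HTB1-HTA1 were not matched 1 to 1. The dbp2Δ peak of the former overlapped 4 wild-type peaks, and the wild-type peak of the latter overlapped 2 dbp2Δ peaks. The distance of 22 bp at HTA2-HTB2 was below the lower quartile. Those of 109 bp at HTB1 and 130 bp at HHT2-HHF2, equal to that cut, lay between the quartiles. The second dbp2Δ summit at HTB1-HTA1 lay 1547 bp from the wild-type summit. The distance of 608 bp at HHF1-HHT1 was also above the upper quartile. Among the 163 matched peaks over 2 or more protein-coding genes, as at this locus, the median was 170 bp (quartiles 31.5 and 803.5 bp) and 34.4% were 600 bp or more apart, so 608 bp lay between those quartiles. Of the 37 divergent pairs under 1 dbp2Δ peak, 18 had the summit beyond either gene, 16 inside either gene and 3 between the genes. For those 16 the median distance from the start codon was 250.5 bp (quartiles 111.25 and 678 bp). The 239 bp in HHF2 lay between these quartiles and the 55 bp in HTA2 below them. A move of the summit towards the gene end was common in dbp2Δ, occurring in 280 of 381 protein-coding genes alone under a peak in each list, by a median of 162 bp over all 381.

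**Figure D2:**
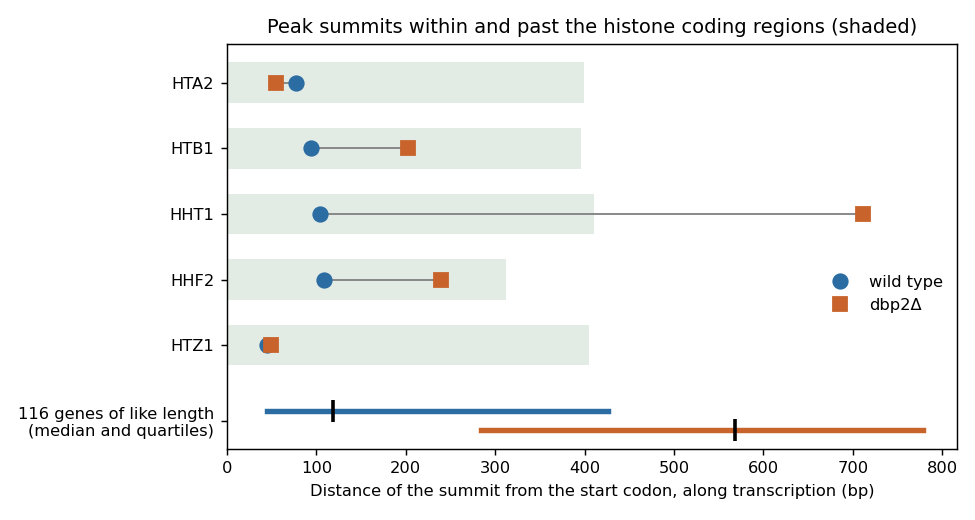
Distance in bp from the start codon to the summit of the peak, for the histone gene that held the wild-type summit at each locus, in the wild type (blue circles) and dbp2Δ (orange squares). Shading marks the coding region, and the bars below give the median and quartiles of 116 protein-coding genes of 312 to 777 bp that are alone under a peak in each list. Wild-type summits lie 45 to 109 bp from the start codon, and in dbp2Δ those of HTA2 and HTZ1 stay near it; the second dbp2Δ summit at HTB1-HTA1, past HTA1, is not drawn.

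Peaks ran past the ends of all 8 core histone genes, with little difference between the strains at most of them. The median distance was 636 bp (wild type) and 718 bp (dbp2Δ). Over genes of divergent pairs under 1 wild-type peak, histone pairs included, it was 486 bp (104 genes, quartiles 347.75 and 941 bp). For such pairs in dbp2Δ it was 569.5 bp (74 genes, quartiles 369.75 and 1221.5 bp). Both histone medians lay between the quartiles of their list. In the wild type the edge lay 413 bp past the gene end at HTB1, 527 bp at HTB2, 546 bp at HHF2, 622 bp at HHF1 and 650 bp at HHT2. It lay 1329, 1521 and 1841 bp past HHT1, HTA1 and HTA2, where the peak continued over IPP1, ADK1 and part of UTP20. The edges past HTB2, HHF2 and HHT2 lay inside the convergent genes ECM15, KTR5 and SIW14. In dbp2Δ the edge lay 389 bp past HTB1, 570 bp past HTB2, 608 bp past HHF2, 757 bp past HHF1, 679 bp past HHT2, 1255 bp past HHT1, 1545 bp past HTA1 and 7814 bp past HTA2. The edge was thus farther out in dbp2Δ at 6 of 8 genes and closer at HTB1 and HHT1, with a median difference of 36 bp. Among the 381 genes alone under their peaks it was farther out in 296 and closer in 82, with a median difference of 68 bp. The count for the histone genes was near that of these other genes, but the sets are unlike. No core histone gene was alone under its peak in both lists. Past HTA1, HTA2 and HHT1 the edge was that of a peak running over ADK1, UTP20 or IPP1.

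The core histone peaks ranked in the upper part of both lists, below the highest peaks. The fold enrichment was computed by the authors' peak caller as the immunoprecipitate over the local background at the summit. It serves here only to rank peaks within a list. In the wild type it was 6.85 at HHT2-HHF2 (rank 148 of 1642), 6.15 at HTB1-HTA1 (rank 182), 6.13 at HTA2-HTB2 (rank 184) and 5.16 at HHF1-HHT1 (rank 229). The median over the list was 1.99, and over the 221 peaks that covered 2 or more protein-coding genes 3.54. In dbp2Δ it was 5.72 at HHF1-HHT1 (rank 188 of 1628), 5.49 at HHT2-HHF2 (rank 200) and 4.35 at HTA2-HTB2 (rank 257). The separate peaks over HTB1 and HTA1 stood at 4.11 (rank 269) and 4.06 (rank 275.5, a tie). The list median there was 2.04, and over the 248 peaks on 2 or more genes 3.63.

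The pileup, the whole number of fragments over the summit, gave another order of the loci in the wild type and the same order in dbp2Δ. In the wild type it was 621 at HTA2-HTB2 (exact Poisson 95% interval 573 to 672), 608 at HHT2-HHF2 (561 to 658), 572 at HHF1-HHT1 (526 to 621) and 568 at HTB1-HTA1 (522 to 617). These intervals overlapped, which does not show that the 4 loci were equal, and differences among them were not tested. In dbp2Δ it was 556 at HHF1-HHT1 (511 to 604), 523 at HHT2-HHF2 (479 to 570), 419 at HTA2-HTB2 (380 to 461), 401 at HTB1 (363 to 442) and 387 at HTA1 (349 to 428). Within that list the intervals of the H3-H4 loci did not overlap those of the H2A-H2B loci, with a reservation for 2 summits outside histone genes. The HHF1-HHT1 summit lay beside IPP1. The summit named HTA1 lay 237 bp past HTA1, in a peak that also covered ADK1. These 2 counts cannot be assigned to a histone gene alone. The intervals cover counting error only and say nothing of replicates, and a summit is the highest point of its peak. Pileups were not compared between the lists, whose depth and background differ.

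The order by fold enrichment differed from that by pileup in the wild type because the background at the summits was unequal. The pileup plus 1, divided by the fold enrichment, gives the background the caller used, also plus 1. It was at its lowest value, 83.3 fragments, at 55.7% of wild-type peaks (within 0.1%), and at 95.5 fragments at 84.1% of dbp2Δ peaks. At the wild-type histone summits it was 111.0 fragments at HHF1-HHT1, 101.5 at HTA2-HTB2, 92.5 at HTB1-HTA1 and 88.9 at HHT2-HHF2, all above that value. With the lowest background at each, the fold would have been 6.88, 7.47, 6.83 and 7.31. In dbp2Δ the backgrounds at the same loci lay between 95.5 and 97.7 fragments. The place of HHF1-HHT1 as the lowest of the 4 by fold enrichment in the wild type thus went with the highest background, whereas in dbp2Δ it came first by fold enrichment and by pileup.

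**Figure D3:**
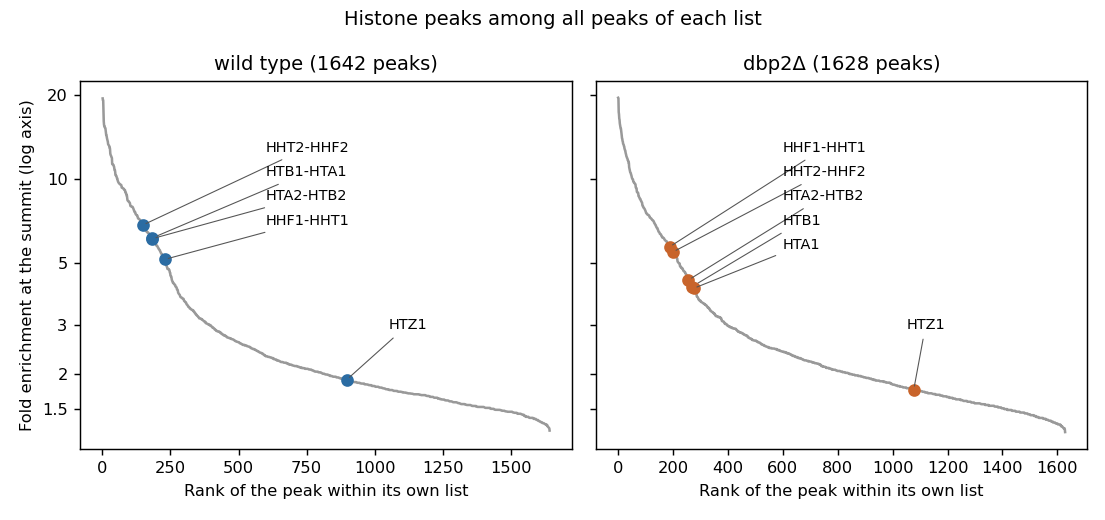
Fold enrichment of every peak (grey line, log axis) against its rank within its own list, with the peaks over histone genes marked, for the wild type (left) and dbp2Δ (right). The core histone peaks lie between 5.16 and 6.85 (left) and between 4.06 and 5.72 (right), and HTZ1 lies at 1.91 and 1.76.

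HTZ1 (YOL012C, chromosome XV, 303579 to 303983) encodes H2A.Z, which the SWR1 complex exchanges for H2A in nucleosomes next to promoters. It was the only histone gene alone under its peak in both lists, and its peaks were low and short beside those of the core histone genes. They spanned 303343 to 304104 (762 bp, wild type) and 303360 to 304069 (710 bp, dbp2Δ), with fold enrichments of 1.91 (rank 897 of 1642) and 1.76 (rank 1077 of 1628). The pileups were 172 (147 to 200) and 167 (143 to 194) fragments. Within each list these intervals lay below those of every core histone peak.

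The HTZ1 summits were 45 and 49 bp from the start codon, 4 bp apart. Among the 116 protein-coding genes of 312 to 777 bp alone under a peak in each list, the median summit was 119 bp from the start codon in wild-type cells and 568 bp in dbp2Δ. Counting HTZ1, 30 of the 116 had a wild-type summit and 12 a dbp2Δ summit no farther downstream than in HTZ1, and 8 had both. The peak ended 236 bp (wild type) and 219 bp (dbp2Δ) past the gene, where the medians of the 116 genes were 393 and 453.5 bp. Its upstream edge lay 121 and 86 bp before the start codon. The phospholipase gene PLB3, divergent from HTZ1 at 1365 bp, had its own peak in both lists (2.86 and 2.94), and HRD1 on the other side had none.

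HHO1 (YPL127C, chromosome XVI, 308828 to 309604), the gene of the linker histone H1, had no peak in either list, and none of its 777 bp was covered. The nearest peak on its 5′ side covered the divergent gene NAN1, a gene of the small-subunit processome, and began 495 bp (wild type) and 617 bp (dbp2Δ) from HHO1. On the other side TBF1 was uncovered, and the nearest peak ended 2439 and 2345 bp away. The lowest fold enrichment in the lists was 1.25 (wild type) and 1.24 (dbp2Δ). A list holds only what passed the q-value cutoff of 0.05, so Pol II at HHO1 was not detectable at this depth, which does not show that it was absent. CSE4, which encodes the H3 variant of centromeres, was likewise uncovered in both lists.

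Lists of genes that act on histones or their genes were small, and their counts stand beside 19.9% (wild type) and 20.6% (dbp2Δ) of all protein-coding genes covered. None of 12 regulators of histone gene transcription was covered in either list, among them HIR1, HIR2, HIR3 and HPC2 of the HIR complex, SPT10 and SPT21, and the cell cycle factors SWI4, SWI6 and MBP1. Partial overlap was found for RTT106, with 23.6% (wild type) and 37.5% (dbp2Δ) of its length covered. MBP1 was overlapped over 11.4% and 16.7% by a peak whose summit lay outside it. SPT21 had 6.94% of its length under a dbp2Δ peak, with the summit also outside it, and none under a wild-type peak. Histone chaperone genes were covered for 4 of 15 in each list and SWR1 complex genes for 3 of 14, against the 19.9% and 20.6% of all protein-coding genes. Histone-modifying enzymes were covered for 2 of 20 in each. Differences between these lists, or from the share over all protein-coding genes, were not tested.

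Of the chaperone genes, FPR4, VPS75 and NHP6A were covered in both lists, NHP6B in the wild type only and FPR3 in dbp2Δ only. FPR4, which encodes a proline isomerase that acts on histones, had a fold enrichment of 6.06 in the wild type from a peak shared with RPL6B and 1.98 in dbp2Δ from a peak of its own. VPS75, a chaperone gene of H3 and H4, stood at 3.91 and 1.64, the former from a peak shared with SUI1 and CWC25. NHP6A, which encodes a high-mobility-group protein, stood at 3.62 and 3.20 in peaks that also covered MAK3. NHP6B, its paralog, was 100% covered in the wild type (2.09), in a peak shared with POL30, and 0% in dbp2Δ. FPR3 had 36.6% of its length under a wild-type peak and 97.4% under a dbp2Δ peak (1.59). The summits of the peaks giving these values lay outside VPS75 and NHP6A in both lists, and outside FPR4 in the wild type. Of all protein-coding genes covered in the wild type, 15% were not covered in dbp2Δ.

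The covered SWR1 genes were ACT1 (4.87 and 3.67), BDF1 (3.48 and 4.20) and RVB1 (2.39 and 2.95). ACT1 and RVB1 also serve other complexes, and ACT1 shared its peaks with YPT1. The summit lay outside ACT1 in both lists and outside RVB1 in dbp2Δ. The covered enzyme genes were BRE1, a ubiquitin ligase of H2B (8.86 and 10.9), and HST3, a deacetylase of H3 (2.63 and 2.58). The BRE1 values were those of peaks that also covered RPL31A and SNR63, and the HST3 values those of peaks shared with BUB3. In each case the summit lay outside the enzyme gene.

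**Figure D4:**
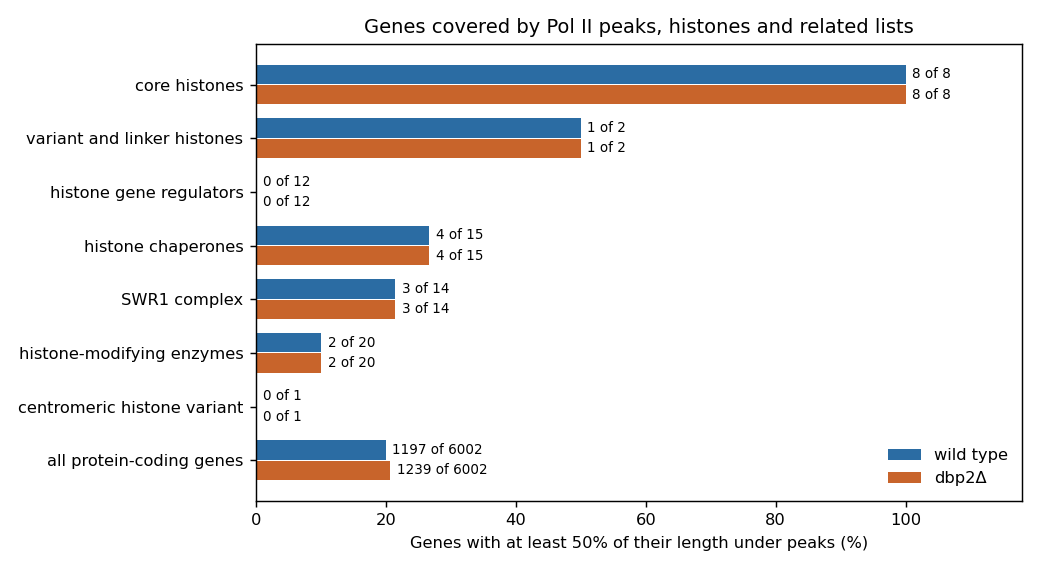
Percent of genes with at least 50% of their length under peaks in wild-type cells (blue) and dbp2Δ (orange), for the histone genes, 5 related lists and all protein-coding genes, with the counts at the bars. The core histones are at 8 of 8 in both strains, the regulators of histone genes at 0 of 12, and all protein-coding genes at 1197 and 1239 of 6002.

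Genes with peaks most like those of the core histones were sought by the percentile of fold enrichment within each list. The 8 core genes averaged the 88.7th percentile of the wild-type list and the 86.0th of the dbp2Δ list. Among covered non-histone protein-coding genes, the nearest over these 2 lists were the ribosomal protein genes RPS7B, RPL17B and RPS6B and the ribosome assembly genes NOG2 and ESF2, which are neighbours with equal values. They lay 0.563, 0.961, 1.11, 1.30 and 1.30 percentile points away. RPS7B, the nearest, had fold enrichments of 5.86 and 4.84.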

How the data were processed

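Per the submitters' processing notes, reads were processed with Trimmomatic 0.36, Bowtie2 2.3.3.1 and MACS2 2.1.2 on build R64. Peak calling by the authors, per the file headers, used for each strain 3 pooled immunoprecipitates against 3 pooled inputs, in paired-end mode, with a q-value cutoff of 0.05, 1 duplicate kept per position and windows of 1000 and 10000 bp for the background. The fragment size, which sets the shortest peak, was 260 bp (wild type) or 290 bp (dbp2Δ). The deposited lists give positions counted from 1, the pileup signal at the summit in fragments, −log10 q-values (not used), and the fold enrichment, a ratio to the background. The scaling of the caller was done separately in each list.

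Genes and coordinates came from the RefSeq table of R64, and strand from the W or C of the systematic name. Spans of protein-coding genes were taken as start codon to stop codon, introns included. A gene was covered when at least 50% of its length lay under peaks, and its fold enrichment is that of the highest peak touching it. Divergent pairs are neighbouring, non-overlapping protein-coding genes pointing apart. Poisson intervals were computed with scipy 1.17.1 and the rest with pandas 2.3.3 in Python 3.11.15, with coverage checked on simulated peaks. Named genes were the members, their neighbours, DBP2, the leading or strain-specific genes of the related lists, and the 5 nearest by percentile. Members, lists and the named-gene rule were chosen with earlier results of these data known. The planned search for promoter motifs was not run, and no sequence was used here.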

Additional observations from a re-analysis of the deposited data

How the results depend on the processing

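Counts at the histone loci kept within 1.5 times of the reported value under the alternatives run. With peaks of at least 2-fold enrichment only, 8 of 10 histone genes were covered in each strain, HTZ1 being lost. Any overlap, coverage of at least 90% of the gene, or peaks of at least 290 bp left the count at 9. The number of core pairs under 1 peak stayed at 4 (wild type) and 3 (dbp2Δ) with any overlap, with at least 90% of both genes and with peaks of at least 2-fold. All 5 wild-type and all 6 dbp2Δ histone peaks overlapped a peak of the other list, and 4 of each did so over at least 50% of both peaks. Counting any overlap raised the background from 19.9% to 38.8% of protein-coding genes in the wild type and from 20.6% to 42.4% in dbp2Δ. The median outward difference of the 10 outer locus edges, dbp2Δ minus wild type, was 6 bp with the highest peak at each locus and 26.5 bp with the outermost edges, since the highest dbp2Δ peak at HTB1-HTA1 ends before HTA1. No paired analysis was possible because the authors pooled the replicates before the peaks were called, and leaving out a replicate was not possible for the same reason. Pooled depth sets which low peaks pass the cutoff, so HTZ1 and the gap at HTB1-HTA1 rest on a threshold whose replicate error is unknown.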

Other observations

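The 12 other divergent pairs that lay under 1 wild-type peak and under separate dbp2Δ peaks, listed after their values were seen, were RBG1 with FUN12, TOS1 with YSY6, RPS16B with RPL13A, RPS29B with TSR1, SLC1 with LHP1, CPR1 with RPA14, PAC10 with YGR079W, DED81 with YHR020W, RRP14 with TEF4, PAM18 with RLP24, SKY1 with GUA1, and RPS15 with RPP2A. The genes of these pairs are 274 to 820 bp apart, and HTB1 and HTA1 817 bp. Of the 13, RPS29B with TSR1 is the only pair more widely spaced than HTB1 with HTA1.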
